A study of Mus musculus with 12 samples.

Results

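The response of PYMT-R221A cells to the small molecule KCC-07 was described across all genes. The 6 libraries were taken by their treatment label, 3 labelled control and 3 labelled KCC-07 at 40 µM, out of the 12 libraries of the series. PYMT-R221A is a mouse mammary tumour cell line, named for the polyoma middle T oncogene, and the series' design text calls the control cells wildtype. All libraries come from this line and were made from polyadenylated RNA. The labels call the replicates biological, number them 1 to 3 in each group and file that number under batch. The libraries are called control 1 to 3 and treated 1 to 3 below. The vehicle, its use in the control cells and the time of exposure were not stated in the sources used here, so compound and vehicle cannot be told apart. The other 6 libraries, with scramble siRNA or siRNA against Mbd2, entered the fit to share its estimate of the spread and are compared once, at the end.

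KCC-07 belongs to a group of compounds described as inhibitors of the MBD2 pathway. MBD2 is a protein that binds methylated CpG dinucleotides and brings the NuRD complex, which holds histone deacetylases and a chromatin remodeller, to methylated promoters. Genes kept silent in this way include germline genes, and epithelial tumours often carry methylation at promoters of cell adhesion genes. Mammary tumour cells can also shift between an epithelial state, with tight junctions and desmosomes, and a mesenchymal state rich in extracellular matrix products.

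Library totals ran from 29814094 to 33956792 counts in the control group and from 25831299 to 29191234 counts with KCC-07, so the treated libraries were the shallower ones. In a principal component analysis of the 6 libraries, the first component (49.5% of the variance) had control 3 and treated 3 at its positive end, and the second (29.3%) separated treated from control. Mitochondrially encoded transcripts took 2.81% and 3.90% of the counts in control 3 and treated 3, against 1.45% to 1.82% in the other libraries. Counts and calls that changed without these libraries are given with and without them.

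Counts were scaled by TMM factors, which adjust for RNA composition, and levels are given in CPM, which are counts scaled to a library of 1000000 counts. A log2 fold change is the fitted difference of treated minus control, on which 1 stands for a 2-fold rise. Of 14935 genes tested, 844 (5.65%) passed an edgeR quasi-likelihood test at a Benjamini-Hochberg adjusted p under 0.05, and 534 of them (3.58%) rose and 310 (2.08%) fell with KCC-07. A gene is said to have risen or fallen only where it passed this test. The rises were larger than the falls. The median log2 fold change was 0.77 among the genes that rose and -0.55 among those that fell, and 60 genes rose but 18 fell at least 4-fold. Changes under 1.5-fold made up 158 of the rises and 173 of the falls. A replicate pair is the treated and the control library of the same number, and its difference is on the log2 CPM scale. Within the pairs, 842 of the 844 genes had the same sign in all 3 pairs, and in 841 of the 844 the treated and the control libraries did not overlap. No overlap was seen for 22.9% of all genes tested. The pair of replicate 3 had the largest difference for 332 of the 534 genes that rose and for 172 of the 310 that fell. A fit with the replicate number as a block (the replicate block) called 3251 genes (21.8%, with 12.8% higher and 9% lower), including all 844. Without control 3 and treated 3 it was 2652 (17.8%, with 10.2% higher and 7.61% lower), of which 754 were among the 844. Leaving out 1 library gave 403 genes without control 1, 391 without control 2, 2134 without control 3, 632 without treated 1, 716 without treated 2 and 777 without treated 3. A fit of the 6 libraries alone, with no siRNA library to share the spread, called 1 gene (0.0067%), and with the block 394 (2.64%). Single calls that ended with 1 library left out are given with those libraries. Counts of list members, with or without the block, are to be read beside the shares over all genes given here.

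**Figure D1:**
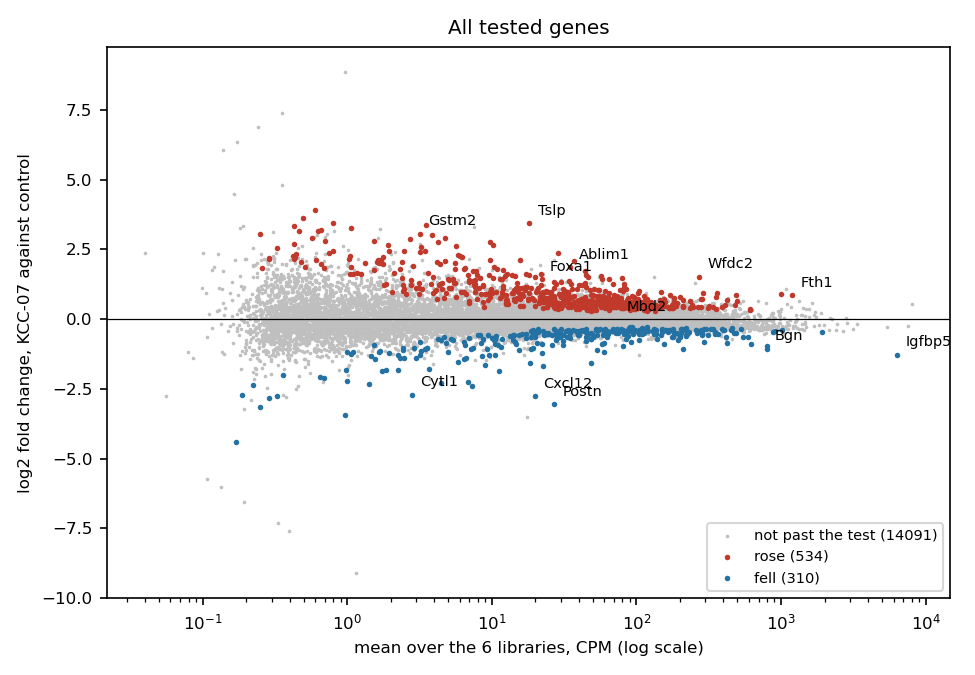
Each point is 1 of the 14935 tested genes, with its mean over the 6 libraries in CPM (log axis) against its log2 fold change. Red points are the 534 genes that rose and blue points the 310 that fell. Mbd2 lies on the line of no change.

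Mbd2, the gene of the protein the compound is meant to act on, stood at 72.9, 75.9 and 76.5 CPM in the control libraries and at 75.1, 72.8 and 77.1 CPM in the treated libraries (in order of replicate). The libraries of both groups overlapped, and the ratio of treated to control was 0.998 (edgeR adjusted p = 0.991). This level is no measure of the protein's binding to DNA.

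Genes named by p, by size of change or by CPM change had to show no overlap between groups. Their separation is therefore no separate result. Several of the genes that rose with the smallest p encode epithelial or secretory pathway proteins. Nucb2, which encodes the calcium-binding protein nucleobindin 2 (chromosome 7, 116504369 to 116540584, plus strand, GRCm38), stood at 23.1, 23.2 and 21.9 CPM in the control libraries and at 45.2, 43.996 and 45.8 CPM in the treated libraries (log2 fold change 0.98 with SE 0.0825, edgeR adjusted p = 0.000572). Its treated libraries lay within a narrow band above all control libraries. Foxa1, a pioneer transcription factor of luminal mammary epithelium (chromosome 12, 57540628 to 57546916, minus strand), stood at 10.1, 12.5 and 13.3 CPM in the control libraries and at 34.2, 28.8 and 33.8 CPM in the treated libraries (log2 fold change 1.43 with SE 0.131, edgeR adjusted p = 0.000572). All treated libraries exceeded the highest control library more than 2-fold. Ablim1 encodes an actin-binding LIM protein and stood at 15.1, 15.7 and 14.3 CPM in the control libraries and at 54.2, 46.6 and 63.8 CPM in the treated libraries (log2 fold change 1.87 with SE 0.173, edgeR adjusted p = 0.000572). Pdia5, a protein disulfide isomerase of the endoplasmic reticulum, stood at 15.9, 14.99 and 16.4 CPM in the control libraries and at 32.003, 30.3 and 32.97 CPM in the treated libraries (log2 fold change 1.01 with SE 0.0937, edgeR adjusted p = 0.000572). Both showed no overlap between groups. Pvr encodes the adhesion receptor CD155, which natural killer cells recognise. It rose from 22.2 ± 4.04 CPM to 66.7 ± 10.1 CPM (mean ± SD, n = 3 each, edgeR adjusted p = 0.000687). Plat, the tissue plasminogen activator gene, stood at 11.4, 10.2 and 11.1 CPM in the control libraries and at 32.4, 25.6 and 41.6 CPM in the treated libraries (log2 fold change 1.61 with SE 0.1697, edgeR adjusted p = 0.00113). Tmprss2, a membrane serine protease gene, rose from 1.004 ± 0.0587 CPM to 5.36 ± 1.82 CPM (edgeR adjusted p = 0.000807). In these genes the lowest treated library was above the highest control library.

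Among the falls with the smallest p were genes of secreted and matrix proteins. Cytl1, a small secreted protein gene, stood at 3.72, 5.196 and 5.77 CPM in the control libraries and at 0.887, 0.6702 and 0.669 CPM in the treated libraries (log2 fold change -2.71 with SE 0.238, edgeR adjusted p = 0.000572), near the low end of the measured levels in the treated libraries. A2m, which encodes the protease inhibitor alpha-2-macroglobulin, stood at 6.97, 7.39 and 7.71 CPM in the control libraries and at 1.81, 1.64 and 1.08 CPM in the treated libraries (log2 fold change -2.28 with SE 0.224, edgeR adjusted p = 0.000687). Bgn, the gene of the matrix proteoglycan biglycan (chromosome X, 73483602 to 73495933, plus strand), stood at 1135, 1005 and 1078 CPM in the control libraries and at 617, 486 and 448 CPM in the treated libraries (log2 fold change -1.05 with SE 0.126, edgeR adjusted p = 0.00189). It was an abundant transcript, and the groups did not overlap. Fxyd6, a regulator of the sodium pump, fell from 25.8 ± 2.702 CPM to 12.6 ± 0.816 CPM, and Nrep, a neuronal regeneration related protein gene, fell from 82.6 ± 4.21 CPM to 36.5 ± 8.06 CPM (edgeR adjusted p = 0.00189 and 0.00242). Alpl, the tissue-nonspecific alkaline phosphatase, fell from 373 ± 37.7 CPM to 211 ± 28.7 CPM (edgeR adjusted p = 0.003003). Pclaf, a PCNA-binding factor of DNA replication, fell from 216 ± 14.04 CPM to 137 ± 11.05 CPM (edgeR adjusted p = 0.00244). The 2 libraries of replicate 3 were the lowest of their groups for Nrep and Pclaf.

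By size of change, the genes that rose most included cytokine, glutathione, junction and glycan genes. Tslp, which encodes an epithelial cytokine, stood at 3.48, 4.93 and 0.812 CPM in the control libraries and at 21.5, 24.2 and 54.4 CPM in the treated libraries, and its pair differences were 2.60, 2.28 and 5.95 on the log2 scale. The third pair was the widest, from the lowest control to the highest treated library. Gstm2, a glutathione transferase (chromosome 3, 107981702 to 107986453, minus strand), stood at 0.586, 0.5995 and 0.841 CPM in the control libraries and at 3.89, 4.62 and 8.62 CPM in the treated libraries (log2 fold change 3.07 with SE 0.343, edgeR adjusted p = 0.00132). Gcnt2, the enzyme that branches I-antigen glycans, stood at 1.11, 1.17 and 0.2899 CPM in the control libraries and at 6.79, 6.84 and 7.03 CPM in the treated libraries (log2 fold change 3.01 with SE 0.378, edgeR adjusted p = 0.00244). Its treated libraries were almost level, whereas control 3 was below the other controls. Cd74, the invariant chain of MHC class II, stood at 1.49, 1.399 and 0.406 CPM in the control libraries and at 6.28, 4.79 and 11.2 CPM in the treated libraries (edgeR adjusted p = 0.008998). Il18rap, a receptor chain for interleukin 18, stood at 1.93, 2.63 and 0.232 CPM in the control libraries and at 9.45, 8.44 and 11.3 CPM in the treated libraries (edgeR adjusted p = 0.0264). Atg9b, an autophagy gene, stood at 2.43, 3.098 and 2.93 CPM in the control libraries and at 13.3, 9.88 and 29.96 CPM in the treated libraries (edgeR adjusted p = 0.00374). For all of these, no treated library fell as low as a control library. Mal, which encodes a lipid raft protein of apical membranes, had a log2 fold change of 2.58, and Fgd3, an exchange factor for Cdc42, one of 2.45. Spn, the gene of the cell surface sialoglycoprotein CD43, rose by 2.28 and the collagenase gene Mmp13 by 2.44 on the log2 scale. The following calls ended when 1 library was left out, each given with the highest edgeR adjusted p and the libraries concerned: Il18rap (0.0696 without control 1), Mal (0.111 without control 1 or 2 or treated 3 and 0.0571 without both replicate 3 libraries) and Fgd3 (0.0841 without control 1 or treated 3). A gene on the opposite strand overlaps exons of Gcnt2 and Atg9b, so these values are uncertain.

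By size of change, the genes that fell most included Postn, Cxcl12, Scrg1 and Capn6. Postn, the periostin gene (chromosome 3, 54361109 to 54391037, plus strand), stood at 29.4, 35.01 and 80.1 CPM in the control libraries and at 4.54, 4.32 and 8.51 CPM in the treated libraries, and its pair differences were -2.68, -3.00 and -3.22. The third control library was the highest, and the pairs still fell by similar amounts. Cxcl12, a chemokine of stromal cells (chromosome 6, 117168535 to 117181367, plus strand), stood at 28.6, 30.4 and 44.6 CPM in the control libraries and at 5.902, 5.998 and 3.42 CPM in the treated libraries (log2 fold change -2.75 with SE 0.304, edgeR adjusted p = 0.00126). Scrg1, a gene linked to chondrogenesis, stood at 11.2, 11.4 and 14.3 CPM in the control libraries and at 2.08, 3.72 and 1.15 CPM in the treated libraries (log2 fold change -2.40 with SE 0.361, edgeR adjusted p = 0.00579). Treated 3 was the lowest library for both. Capn6, a calpain without protease activity, had a log2 fold change of -2.26, and Olfml3, a secreted olfactomedin-like protein gene, one of -1.84. Drp2, a dystrophin-related protein gene, stood at 27.6, 26.4 and 28.7 CPM in the control libraries and at 12.8, 7.34 and 7.92 CPM in the treated libraries (edgeR adjusted p = 0.00452). Pde7b, a phosphodiesterase that breaks down cyclic AMP, stood at 8.9004, 9.59 and 9.51 CPM in the control libraries and at 3.24, 3.42 and 3.64 CPM in the treated libraries (edgeR adjusted p = 0.0229). Ucma, a cartilage matrix protein gene, had a log2 fold change of -1.53, Wscd2 one of -1.68, Plekhb1 one of -1.63, Pi15, a peptidase inhibitor gene, one of -1.58, Pou2af1, a transcriptional coactivator gene, one of -1.78 and Plac9a one of -1.83. In bulk RNA, fewer cells that express a gene and less RNA in each cell cannot be told apart. Without 1 library the calls of Pde7b (0.0642 without control 1 or 2 or treated 1 or 2), Ucma (0.0641 without control 1 or 2), Wscd2 (0.0651 without control 1 or 2) and Plac9a (0.0579 without control 1 or 2) ended (edgeR adjusted p in parentheses). Exons of Pi15 overlap a gene on the opposite strand, and Plac9a has near-identical copies, so these values are uncertain.

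In CPM, a scale not corrected for transcript length, the genes that rose gained 14964 CPM in sum and those that fell dropped by 17032 CPM in sum. Igfbp5, a secreted binding protein of insulin-like growth factors, stood at 6788, 8111 and 11999 CPM in the control libraries and at 4663, 4668 and 1819.7 CPM in the treated libraries (log2 fold change -1.27 with SE 0.301, edgeR adjusted p = 0.0327). Control 3 was the highest and treated 3 the lowest of the 6 libraries, and the pair differences were -0.54, -0.80 and -2.72. Srebf1, the transcription factor of fatty acid synthesis, stood at 868, 952 and 1349 CPM in the control libraries and at 620.3, 639 and 371 CPM in the treated libraries (edgeR adjusted p = 0.01999). Cst3, the gene of the cysteine protease inhibitor cystatin C, fell from 799.5 ± 118 CPM to 433 ± 52.4 CPM (edgeR adjusted p = 0.00767). Smaller relative falls of abundant genes were those of Ptma, by a log2 fold change of -0.47, of the 14-3-3 protein gene Ywhae, by -0.46, of Cfl1, the cofilin gene of actin turnover, by -0.44, and of Rpl3-ps1 by -0.39. On the other side, Fth1, the ferritin heavy chain, stood at 996, 933 and 614 CPM in the control libraries and at 1279, 1316 and 2058 CPM in the treated libraries (log2 fold change 0.87 with SE 0.198, edgeR adjusted p = 0.0273). Control 3 was the lowest and treated 3 the highest library. Wfdc2, which encodes a secreted protease inhibitor-like protein of epithelia, stood at 163, 131 and 124 CPM in the control libraries and at 323, 359.5 and 519 CPM in the treated libraries (log2 fold change 1.52 with SE 0.164, edgeR adjusted p = 0.001205). Slpi, a secreted leukocyte protease inhibitor, rose from 325 ± 64.4 CPM to 524 ± 77.1 CPM, and Col18a1, the gene of the basement membrane collagen that yields endostatin, rose from 386 ± 90.6 CPM to 607 ± 94.05 CPM. Sqstm1, the autophagy receptor p62, rose from 348 ± 122 CPM to 634 ± 97.2 CPM (edgeR adjusted p = 0.0405). With 1 library left out, edgeR no longer called Igfbp5 (0.0672 without control 2), Ptma (0.122 without control 1 or 2), Ywhae (0.0789 without control 1 or 2), Cfl1 (0.075999 without control 1 or 2), Rpl3-ps1 (0.108 without control 1 or 2 or treated 1, 2 or 3), Fth1 (0.0616 without control 2 or treated 3), Slpi (0.0817 without control 1 or 2 or treated 2 or 3 and 0.0576 without both replicate 3 libraries), Col18a1 (0.08701 without control 1 or 2 or treated 1 or 3) and Sqstm1 (0.08297 without control 2 or treated 1 or 2). Values are uncertain where a gene overlaps exons on the opposite strand, as for Srebf1, Cfl1 and Sqstm1, and Ptma and Rpl3-ps1 have near-identical copies.

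Genes that were near silent in the control libraries and present with KCC-07 were few. By the rule of under 0.5 CPM in every control and over 1 CPM in every treated library, Cst6, a cystatin, and Odaph, an enamel matrix protein gene, were named. Cst6 had 15, 15 and 7 counts in the control libraries and 41, 58 and 126 in the treated libraries, and Odaph had 5, 12 and 2 counts in the control libraries and 45, 52 and 68 in the treated libraries. No gene met the reverse rule. The levels of Odaph were 0.146, 0.3997 and 0.05798 CPM in the control libraries and at 1.54, 1.74 and 2.53 CPM in the treated libraries, and both genes rose (edgeR adjusted p = 0.00907 and 0.0121).

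Glutathione, thioredoxin and iron genes gave 24 rises and 1 fall among 84 tested genes. NRF2, a transcription factor held inactive by KEAP1, drives many of them through antioxidant response elements. Of 31 glutathione genes, 8 rose and 0 fell (median log2 fold change 0.30). The thioredoxin and NADPH list of 29 genes had 7 that rose and 1 that fell (median 0.12). Among 24 heme and iron genes, 9 rose and 0 fell (median 0.42). Over all genes tested the median was 0.02, and 3.58% rose and 2.08% fell. Of the glutathione genes, 9 passed as higher and 3 as lower with the replicate block. The glutathione median was 0.06 without both replicate 3 libraries. Of the thioredoxin and NADPH genes, 7 passed as higher and 4 as lower without both replicate 3 libraries. For thioredoxin and NADPH genes, leaving out 1 library gave 4 called higher without control 2 and 5 called lower without control 3. Of the heme and iron genes, 13 passed as higher and 3 as lower with the replicate block and 10 as higher and 2 as lower without both replicate 3 libraries. For heme and iron genes, leaving out 1 library gave 2 called lower without control 3.

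Promoters of 3 of the genes that rose are shown because they hold the core letters TGACNNNGC of an antioxidant response element, read on both strands. They are RefSeq sequences of GRCm38.p6, 300 bases each, from 250 bases before to 50 bases after the annotated start, written 5′ to 3′ along the gene. The core is in capitals.
Gclm (chr3:122245307-122245606, plus strand): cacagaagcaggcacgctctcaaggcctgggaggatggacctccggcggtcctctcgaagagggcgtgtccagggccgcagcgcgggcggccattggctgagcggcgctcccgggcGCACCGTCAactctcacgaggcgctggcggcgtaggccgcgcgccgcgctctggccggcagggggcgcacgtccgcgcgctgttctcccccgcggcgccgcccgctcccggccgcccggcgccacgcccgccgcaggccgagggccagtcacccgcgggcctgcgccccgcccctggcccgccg
Txnrd1 (chr10:82858956-82859255, plus strand): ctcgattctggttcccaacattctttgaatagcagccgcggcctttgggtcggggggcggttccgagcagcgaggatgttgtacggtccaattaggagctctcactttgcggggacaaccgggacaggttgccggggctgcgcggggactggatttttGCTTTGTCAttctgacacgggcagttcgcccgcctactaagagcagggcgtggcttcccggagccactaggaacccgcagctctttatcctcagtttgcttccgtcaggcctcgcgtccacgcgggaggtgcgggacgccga
Me1 (chr9:86695865-86696164, minus strand): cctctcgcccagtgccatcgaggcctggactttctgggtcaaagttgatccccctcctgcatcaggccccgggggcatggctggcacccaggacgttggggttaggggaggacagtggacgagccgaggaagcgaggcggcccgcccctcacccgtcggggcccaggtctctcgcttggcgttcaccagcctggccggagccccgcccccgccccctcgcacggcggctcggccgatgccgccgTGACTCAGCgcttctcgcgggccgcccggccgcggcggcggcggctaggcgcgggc

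The match lies 134 bases before the start in Gclm and 92 before it in Txnrd1, both read on the reverse strand, and 6 bases before it in Me1. The Me1 match overlaps the AP-1 letters TGANTCA. Of the 3 redox lists, 73 of 84 tested genes had a promoter in the table. Counting a gene once for any of its promoters, the core was held by 8 of the 20 matched genes that rose (40.0%) and by 10 of the 52 matched genes that were not called (19.23%). Over the whole table it was held by 13.99% of 27025 genes, counted the same way, and by 12.4% of the 32851 single promoters. A match of letters is not evidence of binding.

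The enzymes at the start of glutathione synthesis moved together. Gclc, the catalytic subunit of glutamate-cysteine ligase (chromosome 9, 77754535 to 77794485, plus strand), stood at 54.98, 47.8 and 54.9 CPM in the control libraries and at 88.1, 83.2 and 90.2 CPM in the treated libraries (log2 fold change 0.73 with SE 0.0975, edgeR adjusted p = 0.003603). Gclm, its modifier subunit (chromosome 3, 122245557 to 122270732, plus strand), stood at 75.4, 70.3 and 66.7 CPM in the control libraries and at 103, 111 and 154 CPM in the treated libraries (log2 fold change 0.79 with SE 0.139, edgeR adjusted p = 0.0108). The groups did not overlap for either subunit, and treated 3 was the highest library. Slc7a11, the cystine transporter that supplies the pathway, stood at 10.1, 15.1 and 3.02 CPM in the control libraries and at 42.8, 51.3 and 51.1 CPM in the treated libraries (edgeR adjusted p = 0.00981). Control 3 was the lowest library, and the 3 treated libraries were close to each other. Gsr, glutathione reductase, stood at 57.6, 61.02 and 57.8 CPM in the control libraries and at 101, 106 and 89.6 CPM in the treated libraries (log2 fold change 0.75 with SE 0.0827, edgeR adjusted p = 0.00126). Gsta1, a glutathione transferase, had 5, 0 and 2 counts in the control libraries and 29, 35 and 33 in the treated libraries, close to the lower limit of the count table. Opposite-strand genes overlap exons of Gclm, and Gsta1 has near-identical copies, which leaves these values uncertain.

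In the thioredoxin and NADPH list 13 of 29 genes lay below 0. Srxn1, sulfiredoxin (chromosome 2, 152105516 to 152111376, plus strand), stood at 44.2, 42.3 and 40.5 CPM in the control libraries and at 95.02, 108 and 146 CPM in the treated libraries (log2 fold change 1.46 with SE 0.141, edgeR adjusted p = 0.000687). Txnrd1, the cytosolic thioredoxin reductase, stood at 202, 220.4 and 215 CPM in the control libraries and at 344, 369 and 346 CPM in the treated libraries (log2 fold change 0.73 with SE 0.117, edgeR adjusted p = 0.007903). Osgin1, an oxidative stress induced growth inhibitor gene, stood at 27.2, 23.4 and 21.97 CPM in the control libraries and at 58.1, 63.2 and 84.8 CPM in the treated libraries (log2 fold change 1.51 with SE 0.216, edgeR adjusted p = 0.00484). Me1, the malic enzyme that makes NADPH, rose from 72.5 ± 6.59 CPM to 112 ± 4.45 CPM, and Pgd, an enzyme of the pentose phosphate pathway, rose from 142 ± 9.97 CPM to 220.04 ± 39.01 CPM (edgeR adjusted p = 0.0285). Prdx2, a peroxiredoxin, was the member that fell, from 267 ± 34.4 CPM to 183 ± 10.9 CPM (edgeR adjusted p = 0.0104). Nqo1, a quinone reductase often used as the readout of NRF2, stood at 115, 90.2 and 83.4 CPM in the control libraries and at 118, 135 and 107 CPM in the treated libraries and did not pass the test (edgeR adjusted p = 0.139). Nfe2l2, the NRF2 gene, and Keap1 had log2 fold changes of 0.21 and 0.27 and did not pass either (edgeR adjusted p = 0.43001 and 0.355). With the replicate block Nfe2l2 passed (edgeR adjusted p = 0.04603). The call of Pgd (0.0918 without control 1 or 2 or treated 1 or 2) ended with 1 library left out, at the edgeR adjusted p given. Overlap with a gene on the opposite strand was found for exons of Me1, Prdx2 and Keap1, so these values are uncertain.

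Among the heme and iron genes, Hmox1, which breaks heme down, stood at 26.1, 25.9 and 24.9 CPM in the control libraries and at 43.2, 54.02 and 91.7 CPM in the treated libraries (log2 fold change 1.30 with SE 0.244, edgeR adjusted p = 0.0132). Treated 3 was the highest library, and the control libraries were nearly level. Mafk, a small partner protein of NRF2, stood at 29.98, 36.1 and 27.9 CPM in the control libraries and at 65.98, 67.7 and 60.3 CPM in the treated libraries (log2 fold change 1.05 with SE 0.143, edgeR adjusted p = 0.00393). Ftl1, the ferritin light chain, rose from 692 ± 122 CPM to 1299 ± 319 CPM, Tfrc, the transferrin receptor, rose from 335 ± 31.2 CPM to 449 ± 36.6 CPM, and Cpox, an enzyme of heme synthesis, rose from 41.7 ± 3.13 CPM to 57.5 ± 2.83 CPM. A call lost with 1 library left out was that of Tfrc (0.0869 without control 1 or 2 or treated 1 or 2), with its edgeR adjusted p. A gene on the opposite strand overlaps exons of Mafk, Ftl1 and Cpox, and Ftl1 has near-identical copies, so these values are uncertain.

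**Figure D2:**
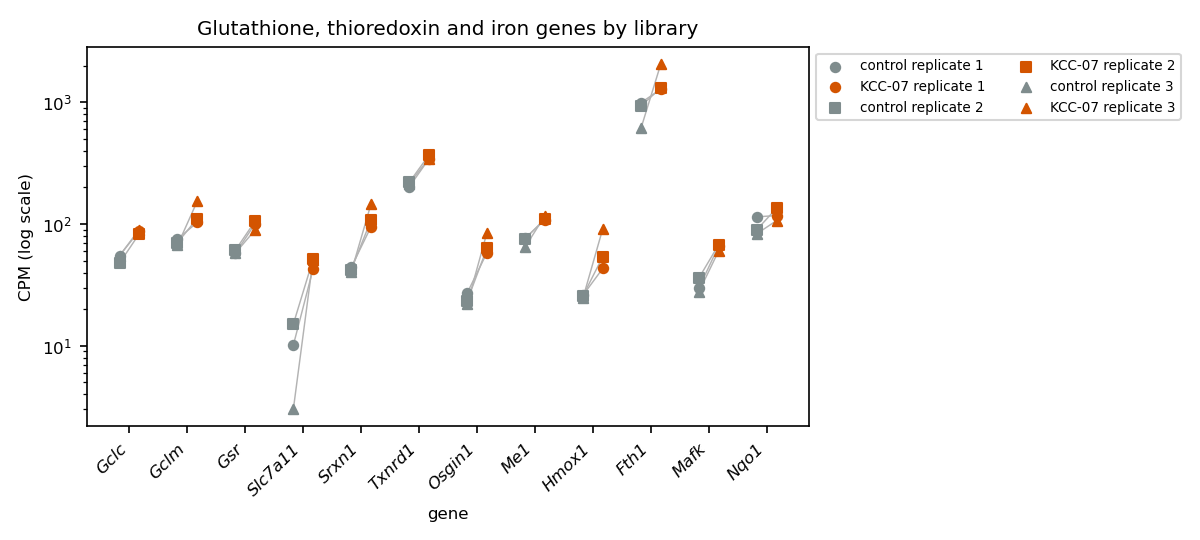
Level of 12 glutathione, thioredoxin and iron genes in CPM on a log axis, with control libraries in grey and KCC-07 libraries in orange, shapes by replicate and lines joining libraries of the same number. In every gene but Nqo1 the orange points lie above all grey points.

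Of 26 genes of xenobiotic metabolism, 3 rose and 0 fell (median 0.29), and of 15 ABC export pump genes, 2 rose and 0 fell (median 0.20). Por, the reductase that serves the cytochrome P450 enzymes, stood at 42.9, 47.2 and 48.5 CPM in the control libraries and at 65.7, 68.4 and 68.2 CPM in the treated libraries (log2 fold change 0.55 with SE 0.0791, edgeR adjusted p = 0.00495). Mt1, the metal-binding protein metallothionein 1, stood at 28.4, 17.4 and 15.6 CPM in the control libraries and at 50.5, 50.5 and 100.4 CPM in the treated libraries (log2 fold change 1.71 with SE 0.283, edgeR adjusted p = 0.00874). Treated 3 was about 2-fold above treated 1 and 2. Abcc4, an exporter of conjugated compounds and cyclic nucleotides, rose from 8.02 ± 1.001 CPM to 15.6 ± 2.905 CPM, Abca8b, another ABC transporter, rose from 1.08 ± 0.193 CPM to 2.53 ± 0.818 CPM, and Ephx1, the microsomal epoxide hydrolase, rose from 72.1 ± 6.38 CPM to 96.4 ± 6.53 CPM. Cyp1b1, a P450 enzyme under the aryl hydrocarbon receptor, stood at 843, 844 and 407 CPM in the control libraries and at 1749.7, 1709.8 and 921 CPM in the treated libraries. Each treated library was above its own control, but both libraries of replicate 3 were lower than their group, and the gene passed with the replicate block and not without it (edgeR adjusted p = 0.000460 against 0.121). Cyp1a1 had 5, 4 and 4 counts in the control libraries and 10, 27 and 30 in the treated libraries, and Ahr stood at 14.99, 14.9 and 18.7 CPM in the control libraries and at 20.7, 21.4 and 32.003 CPM in the treated libraries. They too passed with the block and not without it (edgeR adjusted p = 0.00822 and 0.00503 against 0.147 and 0.0854). Of the xenobiotic genes, 8 passed as higher and 0 as lower with the replicate block. Of the ABC pump genes, 6 passed as higher and 0 as lower with the replicate block. Removing 1 library took the edgeR adjusted p above the threshold for Abca8b (0.111 without control 1, 2 or 3 or treated 1 or 3 and 0.0888 without both replicate 3 libraries) and Ephx1 (0.105 without control 2 or treated 1 or 3). Exons of Abca8b and Ahr overlap a gene on the opposite strand, so these values are uncertain.

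Every called cell junction gene rose. Tight junctions seal the space between epithelial cells, while adherens junctions and desmosomes hold the cells together. Of 29 tight junction genes, 11 rose and 0 fell (median 0.64, pair medians 0.63, 0.34 and 0.82), and of 33 adherens junction and desmosome genes, 6 rose and 0 fell (median 0.34, pair medians 0.28, 0.30 and 0.28). Ocln, occludin (chromosome 13, 100496507 to 100552718, minus strand), stood at 3.37, 3.697 and 3.28 CPM in the control libraries and at 8.15, 9.88 and 12.7 CPM in the treated libraries (log2 fold change 1.57 with SE 0.2403, edgeR adjusted p = 0.00626). Pard6b, a polarity protein of the apical domain, stood at 24.4, 21.7 and 11.3 CPM in the control libraries and at 57.1, 51.8 and 40.1 CPM in the treated libraries (log2 fold change 1.38 with SE 0.231, edgeR adjusted p = 0.008998). Cgn, the junction plaque protein cingulin, stood at 22.2, 39.9 and 46.4 CPM in the control libraries and at 70.8, 65.2 and 87.3 CPM in the treated libraries (edgeR adjusted p = 0.0187). The lowest treated library was above the highest control library for all 3 genes. Cldn3 and Cldn4 encode claudins, the strands of the junction. Cldn3 stood at 23.9, 29.5 and 33.6 CPM in the control libraries and at 53.1, 71.1 and 131 CPM in the treated libraries and Cldn4 at 1.41, 1.27 and 0.667 CPM in the control libraries and at 2.59, 5.26 and 17.5 CPM in the treated libraries. Treated 3 was the highest library for both, and well above treated 1 and 2. Tjp3, a scaffold protein, and Marveld2, tricellulin, rose by log2 fold changes of 1.30 and 0.96. For tight junction genes, leaving out 1 library gave 4 called higher without control 1. With 1 library left out, edgeR no longer called Cldn3 (0.0776 without control 1 or 2), Cldn4 (0.0673 without control 1 or 2) and Tjp3 (0.0692 without control 1). Values are uncertain where a gene overlaps exons on the opposite strand, as for Cldn3 and Tjp3.

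In desmosomes, Pkp2, plakophilin 2, stood at 10.5, 9.46 and 9.04 CPM in the control libraries and at 18.2, 18.6 and 18.6 CPM in the treated libraries (log2 fold change 0.93 with SE 0.107, edgeR adjusted p = 0.00159). Its treated libraries were level, above all controls. Nectin4, an adhesion protein of adherens junctions, stood at 8.49, 9.46 and 13.4 CPM in the control libraries and at 26.5, 23.02 and 20.9 CPM in the treated libraries (log2 fold change 1.17 with SE 0.193, edgeR adjusted p = 0.00884). Ppl, periplakin, stood at 14.4, 26.6 and 33.7 CPM in the control libraries and at 56.9, 52.9 and 47.3 CPM in the treated libraries (edgeR adjusted p = 0.0236), and Dsg2, a desmosomal cadherin, rose from 123 ± 16.1 CPM to 185 ± 27.6 CPM. Cdh1, E-cadherin, stood at 251, 262 and 304 CPM in the control libraries and at 349, 332 and 390.02 CPM in the treated libraries (edgeR adjusted p = 0.0435). Epcam, an epithelial adhesion molecule, rose from 224 ± 6.01 CPM to 306 ± 47.3 CPM (edgeR adjusted p = 0.0338). These rises were under 1.5-fold, and the groups did not overlap. Of the adherens junction and desmosome genes, 12 passed as higher and 0 as lower with the replicate block and 12 as higher and 0 as lower without both replicate 3 libraries. For adherens junction and desmosome genes, leaving out 1 library gave 2 called higher without control 2 and 11 called higher without control 3. The calls of Ppl (0.0642 without control 2 or treated 1), Dsg2 (0.0683 without control 1 or 2 or treated 1), Cdh1 (0.128 without control 1 or 2 or treated 1 or 3) and Epcam (0.0884 without control 1 or 2 or treated 3) ended with 1 library left out, at the edgeR adjusted p given. Opposite-strand genes overlap exons of Dsg2, which leaves this value uncertain.

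Keratins, envelope proteins, membrane proteases and glycan enzymes are further products of epithelia. Of 12 keratins, 3 rose and 0 fell (median 0.27). Krt16, a keratin of activated epidermis, stood at 3.04, 3.06 and 1.304 CPM in the control libraries and at 23.1, 21.7 and 5.798 CPM in the treated libraries (log2 fold change 2.78 with SE 0.525, edgeR adjusted p = 0.0134). Krt18, a keratin of simple epithelium, stood at 180.5, 208 and 151 CPM in the control libraries and at 229.5, 246 and 249.9 CPM in the treated libraries (edgeR adjusted p = 0.0479), while its partner Krt8 stood at 463, 579 and 487 CPM in the control libraries and at 517, 511 and 336 CPM in the treated libraries (edgeR adjusted p = 0.521). Krt18 rose and Krt8 did not pass. Krt19 rose from 1.38 ± 0.0957 CPM to 2.71 ± 0.696 CPM (edgeR adjusted p = 0.0498). Of the basal keratins, Krt5 stood at 5.97, 3.03 and 31.3 CPM in the control libraries and at 10.1, 2.08 and 2.56 CPM in the treated libraries and did not pass. Its log2 fold change of -1.45 rested on control 3 and was 0.12 without that library. Krt14 had a log2 fold change of -0.27 and did not pass, and Krt17 had one of 0.45 and passed with the block and not without it (edgeR adjusted p = 0.0279 against 0.115). Of 10 cornified envelope genes, 0 rose and 0 fell (median 0.25), with 3 at an unadjusted p under 0.05 and 1 called by DESeq2. Of 19 membrane protease and Kunitz inhibitor genes, 2 rose and 0 fell (median 0.18), namely Tmprss2 and Prss22, a tryptase-like protease gene at 1.17, 3.197 and 1.86 CPM in the control libraries and at 4.299, 5.33 and 20.3 CPM in the treated libraries. Of 28 mucin and glycosyltransferase genes, 3 rose and 1 fell (median 0.35). Galnt3, which starts O-linked glycans, rose from 75.6 ± 8.38 CPM to 116 ± 25.7 CPM, Mgat4a, which branches N-linked glycans, rose from 16.8 ± 1.901 CPM to 32.5 ± 12.7 CPM, and St6gal1, a sialyltransferase, fell from 77.5 ± 5.78 CPM to 61.3 ± 1.76 CPM. Of the keratin genes, 5 passed as higher and 0 as lower with the replicate block. For keratin genes, leaving out 1 library gave 1 called higher without control 1 or treated 1. Of the cornified envelope genes, 4 passed as higher and 0 as lower with the replicate block. Of the membrane protease genes, 6 passed as higher and 0 as lower with the replicate block and 4 as higher and 0 as lower without both replicate 3 libraries. Of the mucin and glycosyltransferase genes, 8 passed as higher and 1 as lower with the replicate block. For mucin and glycosyltransferase genes, leaving out 1 library gave 1 called higher without control 1 or 2. The mucin and glycosyltransferase median was 0.18 without both replicate 3 libraries. Calls lost with 1 library left out were those of Krt18 (0.104 without control 1 or treated 1, 2 or 3 and 0.0534 without both replicate 3 libraries), Krt19 (0.131 without control 1 or 2 or treated 1 or 3 and 0.0649 without both replicate 3 libraries), Prss22 (0.131 without control 1, 2 or 3 or treated 3 and 0.0971 without both replicate 3 libraries), Galnt3 (0.0902 without control 1 or 2), Mgat4a (0.105 without control 1 or 2) and St6gal1 (0.131 without control 2 or 3 or treated 1, 2 or 3), each with its edgeR adjusted p. Overlap with a gene on the opposite strand was found for exons of Krt8, Krt5 and St6gal1, and Krt16 has near-identical copies, so these values are uncertain.

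Extracellular matrix genes changed in both directions. Of 42 matricellular and adhesive matrix genes, 3 rose and 5 fell (median 0.17). Besides Postn, Bgn and Olfml3, Fbln5, an elastic fibre protein gene, fell, standing at 233, 241 and 258 CPM in the control libraries and at 127, 118 and 188 CPM in the treated libraries (log2 fold change -0.76 with SE 0.164, edgeR adjusted p = 0.0227). Tnc, tenascin C, rose instead, at 90.3, 135 and 138 CPM in the control libraries and at 238, 189.8 and 238 CPM in the treated libraries (log2 fold change 0.88 with SE 0.158, edgeR adjusted p = 0.0118). Lamb3, a chain of the basement membrane laminin that epithelia bind, also rose, from 394 ± 35.6 CPM to 562 ± 50.7 CPM (edgeR adjusted p = 0.0133). Of 27 collagen chains, 1 rose and 1 fell (median 0.19, 7.41% called, against 5.65% of all genes tested). Col6a2, a chain of the microfibrillar collagen VI, fell from 73.1 ± 11.5 CPM to 34.2 ± 10.4 CPM (edgeR adjusted p = 0.0108), and Col18a1 rose. Fn1, fibronectin, stood at 1029.7, 1473 and 1416 CPM in the control libraries and at 1483, 1356 and 2184 CPM in the treated libraries and Col1a1, a chain of fibrillar collagen I, at 23.9, 24.5 and 51.5 CPM in the control libraries and at 18.2, 18.6 and 29.1 CPM in the treated libraries. Neither passed, and Col1a1 passed with the replicate block (edgeR adjusted p = 0.0137 against 0.195). Of the matricellular genes, 9 passed as higher and 7 as lower with the replicate block and 5 as higher and 7 as lower without both replicate 3 libraries. They had 3 called lower without control 2 or treated 1 or 2. Of the collagen genes, 5 passed as higher and 3 as lower with the replicate block and 4 as higher and 2 as lower without both replicate 3 libraries. They had 3 called higher without control 3, 3 called lower without control 1 and a median of 0.34 without both replicate 3 libraries. Removing 1 library took the edgeR adjusted p above the threshold for Fbln5 (0.0664 without control 1 or 2 or treated 1 or 2). A gene on the opposite strand overlaps exons of Tnc and Fn1, so these values are uncertain.

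Of 27 genes that mark or regulate the mesenchymal state, 0 rose and 4 fell (median 0.04). Snai2, the transcription factor SLUG (chromosome 16, 14705852 to 14709385, plus strand), stood at 17.1, 13.9 and 13.8 CPM in the control libraries and at 7.74, 4.42 and 6.02 CPM in the treated libraries (log2 fold change -1.30 with SE 0.238, edgeR adjusted p = 0.0123). Every treated library was below every control library. S100a4, a calcium-binding protein of mesenchymal cells, stood at 31.3, 28.6 and 26.7 CPM in the control libraries and at 17.6, 17.4 and 11.4 CPM in the treated libraries (edgeR adjusted p = 0.0108). Tpm1, a tropomyosin of stress fibres, fell from 725 ± 78.3 CPM to 466 ± 86.4 CPM, and Tcf4, a basic helix-loop-helix factor gene, fell from 149 ± 20.1 CPM to 112 ± 5.53 CPM. Vim, vimentin, stood at 1001, 958 and 746 CPM in the control libraries and at 804, 739 and 337 CPM in the treated libraries. It passed with the block and not without it (edgeR adjusted p = 0.0221 against 0.224), and treated 3 was far below the other libraries. Zeb1 and Cdh2, N-cadherin, had log2 fold changes of -0.08 and -0.16 and did not pass. Of the mesenchymal state genes, 3 passed as higher and 5 as lower with the replicate block. For mesenchymal state genes, leaving out 1 library gave 2 called lower without control 2. Without 1 library the calls of Tpm1 (0.0616 without control 2) and Tcf4 (0.106 without control 2 or 3 or treated 1, 2 or 3 and 0.0896 without both replicate 3 libraries) ended (edgeR adjusted p in parentheses). Exons of Zeb1 overlap a gene on the opposite strand, and S100a4 has near-identical copies, so these values are uncertain.

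**Figure D3:**
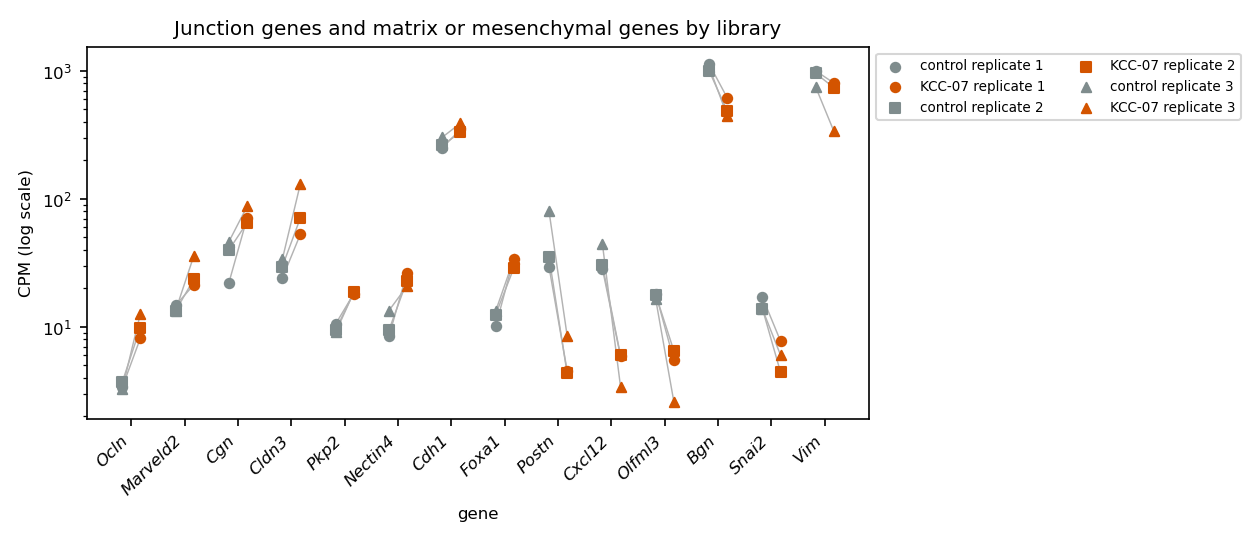
Level of 8 junction or luminal genes (Ocln to Foxa1) and of 6 matrix or mesenchymal genes (Postn to Vim) in CPM on a log axis, with control in grey, KCC-07 in orange, shapes by replicate and lines joining libraries of the same number. From Ocln to Foxa1 the orange points lie above all grey points, and from Postn to Snai2 they lie below them, whereas Vim overlaps.

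Of 30 genes of matrix proteases and their inhibitors, 4 rose and 0 fell (median 0.45). Adamts1 and Adamts4 cleave matrix proteoglycans. Adamts1 stood at 223, 164 and 211 CPM in the control libraries and at 425, 341 and 371 CPM in the treated libraries (log2 fold change 0.93 with SE 0.169, edgeR adjusted p = 0.0121), and Adamts4 at 55.4, 91.2 and 62.6 CPM in the control libraries and at 143, 133 and 129 CPM in the treated libraries (log2 fold change 0.95 with SE 0.154, edgeR adjusted p = 0.00819). The groups did not overlap for either. Of 28 integrin and matrix receptor genes, 3 rose and 0 fell (median 0.14). Itga7, a laminin receptor chain, stood at 4.39, 6.76 and 7.54 CPM in the control libraries and at 16.8, 11.9 and 26.6 CPM in the treated libraries (log2 fold change 1.56 with SE 0.284, edgeR adjusted p = 0.011998). Cd44, the hyaluronan receptor, rose from 160.4 ± 5.83 CPM to 258 ± 59.8 CPM, and Cd82, a tetraspanin, rose from 24.4 ± 5.54 CPM to 40.9 ± 8.36 CPM. Of the matrix protease genes, 13 passed as higher and 2 as lower with the replicate block and 9 as higher and 3 as lower without both replicate 3 libraries. For matrix protease genes, leaving out 1 library gave 7 called higher without treated 1 and 2 called lower without treated 3. Of the integrin genes, 8 passed as higher and 2 as lower with the replicate block and 5 as higher and 2 as lower without both replicate 3 libraries. With 1 library left out, edgeR no longer called Cd82 (0.115 without control 1 or treated 2 or 3 and 0.0795 without both replicate 3 libraries). Values are uncertain where a gene overlaps exons on the opposite strand, as for Adamts4 and Itga7.

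The called interleukin genes rose, and both called chemokine genes fell. Of 40 interleukin and receptor genes, 6 rose and 0 fell (median 0.27). Lif, leukemia inhibitory factor, stood at 199.8, 266 and 315 CPM in the control libraries and at 463, 486 and 417 CPM in the treated libraries (log2 fold change 0.81 with SE 0.155, edgeR adjusted p = 0.0144). Clcf1, another cytokine of the same family, stood at 1.55, 2.43 and 4.49 CPM in the control libraries and at 6.58, 6.97 and 16.99 CPM in the treated libraries (log2 fold change 1.84 with SE 0.405, edgeR adjusted p = 0.0237). Both libraries of replicate 3 were the highest of their groups. Il6 stood at 1.02, 0.333 and 0.5798 CPM in the control libraries and at 6.55, 5.797 and 1.93 CPM in the treated libraries (log2 fold change 2.87 with SE 0.634, edgeR adjusted p = 0.0249), and here treated 3 was the lowest treated library. Il1rap, a shared receptor chain of the interleukin 1 family, rose from 38.3 ± 6.01 CPM to 57.5 ± 11.1 CPM. Of 19 chemokines and receptors, 0 rose and 2 fell (median -0.04). The falls were those of Cxcl12 and of Ackr3, a receptor that scavenges its product. Ackr3 had 33, 17 and 63 counts in the control libraries and 9, 7 and 6 in the treated libraries (edgeR adjusted p = 0.0214). Of 39 NF-kB and TNF family genes, 4 rose and 0 fell (median 0.24). Ptgs2, cyclooxygenase 2, stood at 61.3, 52.2 and 31.6 CPM in the control libraries and at 118, 113 and 119 CPM in the treated libraries (log2 fold change 1.27 with SE 0.271, edgeR adjusted p = 0.0214). The death receptor gene Tnfrsf10b rose from 27.5 ± 5.15 CPM to 40.6 ± 1.92 CPM, the TWEAK receptor gene Tnfrsf12a rose from 92.2 ± 20.2 CPM to 137 ± 7.597 CPM, and the TNF receptor gene Tnfrsf1b rose from 1.76 ± 0.132 CPM to 7.02 ± 5.06 CPM. Of the interleukin genes, 15 passed as higher and 0 as lower with the replicate block and 10 as higher and 0 as lower without both replicate 3 libraries. Of the chemokine genes, 6 passed as higher and 4 as lower with the replicate block and 2 as higher and 3 as lower without both replicate 3 libraries. Their median was 0.19 without both replicate 3 libraries. Of the NF-kB and TNF family genes, 12 passed as higher and 0 as lower with the replicate block. They had 1 called higher without control 1. The calls of Clcf1 (0.0831 without control 1 or 2 or treated 3), Il6 (0.0869 without control 2 or treated 1 or 2), Il1rap (0.1195 without control 1 or 3 or treated 3 and 0.0726 without both replicate 3 libraries), Ackr3 (0.0559 without treated 2 or 3), Ptgs2 (0.0607 without control 2), Tnfrsf10b (0.0751 without control 1 or treated 1 or 2), Tnfrsf12a (0.0719 without control 1 or treated 2) and Tnfrsf1b (0.0601 without control 1 or 2) ended with 1 library left out, at the edgeR adjusted p given. Opposite-strand genes overlap exons of Il1rap, which leaves this value uncertain.

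For several inflammatory genes both libraries of replicate 3 were far below replicates 1 and 2, so that the groups overlapped while all 3 pairs moved the same way. The chemokine gene Cxcl2 stood at 81.3, 74.8 and 1.28 CPM in the control libraries and at 172, 147 and 2.12 CPM in the treated libraries, and its pair differences were 1.08, 0.97 and 0.70. Replicate 3 was low in both groups, and the gene passed with the replicate block and not without it (edgeR adjusted p = 0.00104 against 0.686). Tnfaip3, a feedback inhibitor of NF-kB, stood at 584, 442 and 38.4 CPM in the control libraries and at 799, 681 and 54.5 CPM in the treated libraries (pair differences 0.45, 0.62 and 0.50, edgeR adjusted p = 0.002401 with the block against 0.774). Csf2, the cytokine GM-CSF, stood at 3.43, 4.23 and 0.08697 CPM in the control libraries and at 15.3, 17.1 and 1.86 CPM in the treated libraries (pair differences 2.13, 1.99 and 3.65, edgeR adjusted p = 0.0113 against 0.20001). Of 42 type I interferon response genes, 24 had no overlap between groups, which was seen for 22.9% of all genes tested. By edgeR 0 passed, also without both replicate 3 libraries, 9 had an unadjusted p under 0.05 and 4 passed with DESeq2. With the block 24 were higher and 0 lower (median 0.75). The median of this list was 1.39 for siMBD2 against scramble and 1.38 for scramble against control. Those libraries share the spread of the fit, and why 0 passed was not tested. Cxcl10, an interferon-induced chemokine, stood at 8.84, 8.59 and 0.406 CPM in the control libraries and at 31.6, 22.2 and 2.53 CPM in the treated libraries, and Ifit1, an antiviral RNA-binding protein gene, at 1.52, 2.73 and 1.13 CPM in the control libraries and at 6.31, 5.43 and 4.61 CPM in the treated libraries. Their edgeR adjusted p were 0.282 and 0.349, and 0.00123 and 0.00331 with the block. Trim30a had 1, 1 and 0 counts in the control libraries and 11, 25 and 23 in the treated libraries (edgeR adjusted p = 0.2001, and 0.00155 under the block). Of 24 MHC genes, 3 rose and 0 fell (median 0.28). The class I genes H2-K1 and H2-D1 rose from 337 ± 54.9 CPM to 485 ± 36.1 CPM and from 211 ± 28.04 CPM to 347 ± 31.8 CPM. Of the MHC genes, 1 was called higher without control 1 or treated 1 or 2. The MHC median was 0.09 without both replicate 3 libraries. Calls lost with 1 library left out were those of H2-K1 (0.0806 without control 1 or treated 1 or 2) and H2-D1 (0.114 without control 1, 2 or 3 or treated 1, 2 or 3 and 0.0917 without both replicate 3 libraries), each with its edgeR adjusted p. Overlap with a gene on the opposite strand was found for exons of Csf2 and Cxcl10, so these values are uncertain.

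Among genes under ERK signalling, several had replicate 3 as the highest library of both groups. ERK is the kinase at the end of the growth factor cascade, and Sprouty proteins and dual-specificity phosphatases restrain it. Of 29 ERK feedback and ETS genes, 2 rose and 1 fell (median 0.48, pair medians 0.37, 0.39 and 0.39). Spry4 stood at 3.54, 4.76 and 18.6 CPM in the control libraries and at 11.5, 14.3 and 76.7 CPM in the treated libraries, and its pair differences were 1.68, 1.58 and 2.04. Control 3 was above treated 1 and 2, and each treated library was above its own control. Spry4 passed with the replicate block and not without it (edgeR adjusted p = 0.000647 against 0.126). Spry1 had pair differences of 1.25, 1.20 and 1.72 and Dusp6 of 1.13, 1.10 and 1.45, and they too passed with the block and not without it (edgeR adjusted p = 0.000807 and 0.000680 against 0.0831 and 0.0642). Dusp8, another phosphatase of the MAP kinases, rose from 56.2 ± 4.18 CPM to 94.1 ± 25.4 CPM (edgeR adjusted p = 0.0327), and Ccnd1, cyclin D1, rose from 535 ± 28.3 CPM to 693 ± 40.6 CPM. Etv1, an ETS factor gene, fell from 99.5 ± 10.6 CPM to 69.1 ± 11.8 CPM. Of 30 immediate early genes, 2 rose and 0 fell (median 0.40, 6.67% called, against 5.65% of all genes tested). Fosl2, an AP-1 subunit, stood at 55.5, 75.6 and 63.5 CPM in the control libraries and at 102, 101 and 129.9 CPM in the treated libraries (log2 fold change 0.77 with SE 0.132, edgeR adjusted p = 0.00907), and Csrnp1, a nuclear factor gene, rose from 17.2 ± 7.85 CPM to 43.05 ± 11.96 CPM. Fosb, an AP-1 subunit, had pair differences of 1.497, 1.62 and 1.98 and passed with the block and not without it (edgeR adjusted p = 0.000807 against 0.0724). Of the ERK feedback genes, 17 passed as higher and 1 as lower with the replicate block and 13 as higher and 0 as lower without both replicate 3 libraries. They had 0 called higher without control 1 or treated 1 and 11 without control 3. Of the immediate early genes, 18 passed as higher and 0 as lower with the replicate block and 11 as higher and 0 as lower without both replicate 3 libraries. Of them, 4 were called higher without control 3 or treated 3. Removing 1 library took the edgeR adjusted p above the threshold for Dusp8 (0.09897 without control 1 or 2 or treated 1 or 2), Ccnd1 (0.0788 without control 1 or 2 or treated 1), Etv1 (0.0854 without control 1, 2 or 3 or treated 1 or 3 and 0.0732 without both replicate 3 libraries) and Csrnp1 (0.0812 without control 2 or treated 1 or 2). A gene on the opposite strand overlaps exons of Dusp8, Ccnd1, Csrnp1 and Spry1, so these values are uncertain.

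Of 23 genes of the EGF receptor family and its ligands, 4 rose and 0 fell (median 0.48, pair medians 0.48, 0.42 and 0.35). The genes that rose were the ligands Areg, Epgn and Nrg1 and the receptor Erbb3. The ligands Tgfa and Nrg2 had log2 fold changes of 0.62 and 0.41 and passed with the replicate block and not without it (edgeR adjusted p = 0.00356 and 0.0156 against 0.16002 and 0.0525). Areg, amphiregulin, stood at 3.02, 3.26 and 8.29 CPM in the control libraries and at 10.1, 13.97 and 26.8 CPM in the treated libraries (log2 fold change 1.80 with SE 0.413, edgeR adjusted p = 0.0285), and its pair differences were 1.72, 2.08 and 1.68. The lowest treated library was above the highest control library, and replicate 3 was the highest in both groups. Epgn, epigen, stood at 6.97, 6.49 and 2.84 CPM in the control libraries and at 23.2, 20.9 and 10.9 CPM in the treated libraries (log2 fold change 1.76 with SE 0.3302, edgeR adjusted p = 0.0131), here with replicate 3 the lowest of both groups. Nrg1, neuregulin 1, stood at 6.15, 4.96 and 4.38 CPM in the control libraries and at 13.4, 9.11 and 13.8 CPM in the treated libraries (log2 fold change 1.23 with SE 0.252, edgeR adjusted p = 0.0188), and Erbb3, its receptor, at 9.84, 11.1 and 14.1 CPM in the control libraries and at 17.5, 20.004 and 38.7 CPM in the treated libraries (log2 fold change 1.12 with SE 0.268, edgeR adjusted p = 0.0339). Treated 3 was the highest library for Erbb3. Egfr, the receptor of amphiregulin and epigen, stood at 91.99, 89.5 and 103 CPM in the control libraries and at 120.3, 91.9 and 92.96 CPM in the treated libraries and did not pass (edgeR adjusted p = 0.643). Of the EGF receptor family genes, 12 passed as higher and 0 as lower with the replicate block and 10 as higher and 0 as lower without both replicate 3 libraries. For EGF receptor family genes, leaving out 1 library gave 1 called higher without control 2 and 9 called higher without control 3. Without 1 library the calls of Areg (0.1004 without control 1 or 2 or treated 3), Nrg1 (0.0642 without control 2) and Erbb3 (0.117 without control 1 or 2 or treated 3) ended (edgeR adjusted p in parentheses).

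**Figure D4:**
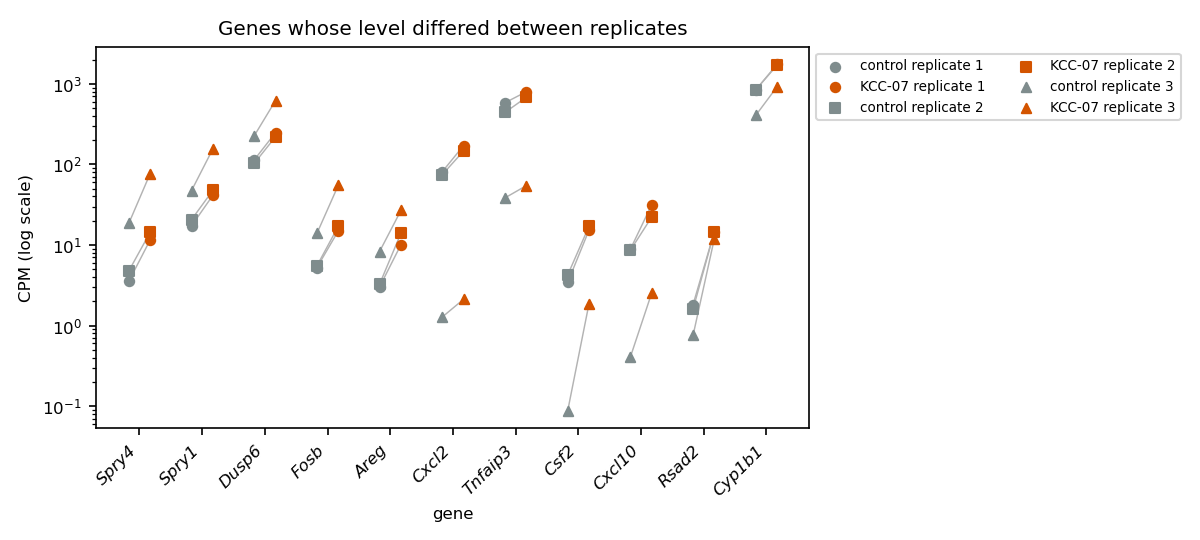
Level of 11 genes in CPM on a log axis, with control in grey, KCC-07 in orange, shapes by replicate and lines joining libraries of the same number. All lines rise from control to KCC-07, and replicate 3 (triangles) lies above the other replicates for Spry4, Spry1, Dusp6, Fosb and Areg and below them for Cxcl2, Tnfaip3, Csf2, Cxcl10, Rsad2 and Cyp1b1.

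In the Notch pathway a ligand on a cell triggers cleavage of the receptor of its neighbour, which then acts in the nucleus. Of 22 Notch genes, 3 rose and 0 fell (median 0.17). The ligand gene Jag1 stood at 15.1, 7.93 and 7.77 CPM in the control libraries and at 47.8, 24.96 and 15.5 CPM in the treated libraries (log2 fold change 1.52 with SE 0.382, edgeR adjusted p = 0.0415). The receptor gene Notch3 stood at 2.78, 2.73 and 5.36 CPM in the control libraries and at 10.8, 9.55 and 27.2 CPM in the treated libraries (log2 fold change 2.13 with SE 0.407, edgeR adjusted p = 0.0142). The target gene Nrarp stood at 18.8, 7.63 and 16.3 CPM in the control libraries and at 95.6, 65.8 and 19.4 CPM in the treated libraries (log2 fold change 2.08 with SE 0.496, edgeR adjusted p = 0.0338). Its pair differences were 2.34, 3.10 and 0.25, so replicate 3 gave the smallest, and treated 3 was only just above control 1. Of 41 TGF-beta and BMP genes, 4 rose and 1 fell (median 0.04). Smad7, the inhibitor of the pathway, stood at 80.7, 72.8 and 108 CPM in the control libraries and at 166, 151 and 104 CPM in the treated libraries (edgeR adjusted p = 0.0404). Treated 3 lay below control 3, so this gene had 1 pair against its direction, and the groups overlapped. Fst, follistatin, rose from 15.6 ± 2.53 CPM to 27.4 ± 6.55 CPM, and Ltbp2, a matrix protein of the latent TGF-beta binding family, fell from 199.9 ± 62.5 CPM to 109 ± 17.3 CPM. Bmp6 had 5, 11 and 5 counts in the control libraries and 16, 19 and 33 in the treated libraries and Gdf15 had 31, 12 and 26 counts in the control libraries and 76, 34 and 91 in the treated libraries, and both rose (edgeR adjusted p = 0.04204 and 0.0424). Of 33 Wnt genes, 0 rose and 1 fell (median -0.04), namely Wif1, a secreted Wnt inhibitor, at 24.8, 34.5 and 33.8 CPM in the control libraries and at 12.4, 17.02 and 10.9 CPM in the treated libraries (log2 fold change -1.21 with SE 0.198, edgeR adjusted p = 0.00843). Of 37 stromal growth factor genes, 0 rose and 2 fell (median -0.16, 5.41% called, against 3.03% of Wnt genes and 5.65% of all). Beside Igfbp5 this was Igfbp4, of the same family, at 455, 637 and 546 CPM in the control libraries and at 245, 299 and 358 CPM in the treated libraries (log2 fold change -0.86 with SE 0.142, edgeR adjusted p = 0.00874). The groups did not overlap for either. Of the Notch genes, 6 passed as higher and 0 as lower with the replicate block and 6 as higher and 0 as lower without both replicate 3 libraries. They had 0 called higher without control 2 and 5 without control 3. Of the TGF-beta genes, 6 passed as higher and 3 as lower with the replicate block. Of them, 0 were called higher without control 1. Of the Wnt genes, 4 passed as higher and 6 as lower with the replicate block and 6 as higher and 2 as lower without both replicate 3 libraries. They had 4 called higher without control 3. Of the stromal growth factor genes, 7 passed as higher and 5 as lower with the replicate block and 2 as higher and 2 as lower without both replicate 3 libraries. Of them, 4 were called higher without control 3. With 1 library left out, edgeR no longer called Jag1 (0.131 without control 2 or 3 or treated 1 or 2), Notch3 (0.0601 without control 1 or 2), Nrarp (0.106 without control 1 or 2 or treated 1 or 2), Smad7 (0.129 without control 1 or 2 or treated 1 or 2), Fst (0.131 without control 1 or 2 or treated 3 and 0.0726 without both replicate 3 libraries), Ltbp2 (0.0994 without control 2 or 3 or treated 2 or 3 and 0.0991 without both replicate 3 libraries), Bmp6 (0.129 without control 1 or 3 or treated 2 or 3 and 0.112 without both replicate 3 libraries) and Gdf15 (0.129 without control 1 or 2 or treated 1 or 3 and 0.0726 without both replicate 3 libraries). Exons of Notch3, Nrarp, Fst, Ltbp2 and Bmp6 overlap a gene on the opposite strand, and Nrarp has near-identical copies, so these values are uncertain.

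The called ATF4 targets included 3 amino acid transporters, Slc7a11, Slc7a1 and Slc1a4. The transcription factor ATF4, made when the integrated stress response is on, acts through sites with the core letters TGATGNAA. Of 35 ATF4 targets, 5 rose and 0 fell, and all 35 lay above 0 (median 0.59, pair medians 0.36, 0.16 and 1.36, so pair 3 was the highest). Promoters of 2 of the genes that rose are shown because they hold the core, marked in capitals, in the same window and build as above.
Slc7a11 (chr3:50443564-50443863, minus strand): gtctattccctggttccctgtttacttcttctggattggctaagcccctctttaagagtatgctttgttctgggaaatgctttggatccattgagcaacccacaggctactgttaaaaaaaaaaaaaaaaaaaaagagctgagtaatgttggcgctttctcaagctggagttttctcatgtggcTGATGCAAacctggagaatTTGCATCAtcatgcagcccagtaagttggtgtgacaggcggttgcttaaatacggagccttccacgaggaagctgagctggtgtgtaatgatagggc
Slc1a4 (chr11:20332664-20332963, minus strand): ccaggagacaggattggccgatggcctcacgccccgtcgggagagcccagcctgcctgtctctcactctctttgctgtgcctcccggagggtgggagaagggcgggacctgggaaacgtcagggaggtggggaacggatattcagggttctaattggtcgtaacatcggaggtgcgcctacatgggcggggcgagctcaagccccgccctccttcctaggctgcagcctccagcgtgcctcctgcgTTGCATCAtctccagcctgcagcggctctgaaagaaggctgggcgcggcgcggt

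Slc7a11 holds the core at 66 and, on the reverse strand, at 47 bases before the start, and Slc1a4 at 4 bases before it on the reverse strand. Of 29 ATF4 targets with a promoter in the table, 9 (31.0%) held the core, as did 2 of the 5 that rose (40.0%). The share over all promoters was 3.97%, and by gene 4.51%. Slc7a1, a transporter of cationic amino acids, stood at 88.5, 121 and 86.8 CPM in the control libraries and at 176, 168 and 242 CPM in the treated libraries (log2 fold change 0.99 with SE 0.163, edgeR adjusted p = 0.00874). Slc1a4, a transporter of neutral amino acids, stood at 41.7, 35.6 and 52.7 CPM in the control libraries and at 79.5, 61.2 and 84.3 CPM in the treated libraries (log2 fold change 0.79 with SE 0.147, edgeR adjusted p = 0.0127). Stc2, the secreted protein stanniocalcin 2, stood at 15.3, 15.02 and 14.99 CPM in the control libraries and at 31.1, 22.4 and 61.4 CPM in the treated libraries (log2 fold change 1.34 with SE 0.271, edgeR adjusted p = 0.0181). Treated 3 was the highest library of each. Ddit4, an inhibitor of mTOR complex 1, stood at 219, 261 and 256 CPM in the control libraries and at 481, 482 and 452 CPM in the treated libraries, with its treated libraries level. Atf4 itself stood at 377, 374 and 203 CPM in the control libraries and at 397, 387 and 386 CPM in the treated libraries and did not pass (edgeR adjusted p = 0.333). Control 3 was the lowest library. Trib3, a target of ATF4, had a log2 fold change of 0.71 (edgeR adjusted p = 0.0665, and 0.0361 with the block), and Ddit3, CHOP, one of 0.06 (edgeR adjusted p = 0.963). Of the ATF4 target genes, 12 passed as higher and 0 as lower with the replicate block and 10 as higher and 0 as lower without both replicate 3 libraries. The ATF4 target median was 0.28 without both replicate 3 libraries. The call of Stc2 (0.0607 without control 1 or 2) ended with 1 library left out, at the edgeR adjusted p given. Values are uncertain where a gene overlaps exons on the opposite strand, as for Ddit3.

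Of 26 unfolded protein response genes, 2 rose and 0 fell (median 0.14). Atf6, a sensor of the endoplasmic reticulum, stood at 47.02, 50.3 and 53.1 CPM in the control libraries and at 76.1, 78.2 and 117 CPM in the treated libraries (log2 fold change 0.85 with SE 0.142, edgeR adjusted p = 0.00884). Ero1lb, an oxidase of that compartment, rose from 11.2 ± 0.8901 CPM to 21.01 ± 5.16 CPM. Hspa5, the chaperone BiP, stood at 1499, 1571 and 846 CPM in the control libraries and at 1683, 1698 and 913 CPM in the treated libraries and did not pass (edgeR adjusted p = 0.791). Of 32 p53 targets, 5 rose and 0 fell (median 0.34). Mdm2, the ubiquitin ligase of p53, stood at 73.2, 67.6 and 60.2 CPM in the control libraries and at 113, 110.1 and 88.1 CPM in the treated libraries, and Plk3, a stress kinase, at 7.44, 7.29 and 11.2 CPM in the control libraries and at 14.3, 15.3 and 34.7 CPM in the treated libraries (edgeR adjusted p = 0.008998 and 0.0464). Cdkn1a, the cell cycle inhibitor p21, stood at 46.1, 55.8 and 27.3 CPM in the control libraries and at 91.4, 88.5 and 55.2 CPM in the treated libraries. Replicate 3 was the lowest in both groups, and Cdkn1a passed with the block and not without it (edgeR adjusted p = 0.00123 against 0.105). Of the unfolded protein response genes, 9 passed as higher and 0 as lower with the replicate block and 7 as higher and 0 as lower without both replicate 3 libraries. For unfolded protein response genes, leaving out 1 library gave 5 called higher without treated 3. Of the p53 target genes, 15 passed as higher and 5 as lower with the replicate block and 9 as higher and 2 as lower without both replicate 3 libraries. For p53 target genes, leaving out 1 library gave 2 called higher without control 1 or 2 or treated 1, 8 called higher without control 3 and 2 called lower without treated 3. A call lost with 1 library left out was that of Plk3 (0.1405 without control 1 or 2 or treated 3), with its edgeR adjusted p. Opposite-strand genes overlap exons of Plk3 and Cdkn1a, which leaves these values uncertain.

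Cell cycle genes were called in both directions. In the lists of DNA replication, mitosis and D-type cyclins, 4.17%, 7.5% and 11.8% of the tested genes were called, against 5.65% of all tested genes. Of 48 genes of DNA replication, 2 rose and 0 fell (median -0.14), and of 40 mitotic genes, 2 rose and 1 fell (median -0.09). E2f1 and E2f2, transcription factors of S phase entry, stood at 89.1, 120.4 and 97.9 CPM in the control libraries and at 144, 142 and 153 CPM in the treated libraries and at 11.97, 14.4 and 14.6 CPM in the control libraries and at 21.7, 21.04 and 24.4 CPM in the treated libraries (edgeR adjusted p = 0.0215 and 0.0115). Both rose with no overlap. Of 17 D-type cyclin and inhibitor genes, 1 rose and 1 fell (median 0.02). Cdk4, the kinase partner of cyclin D1, stood at 288, 265 and 241 CPM in the control libraries and at 189, 182 and 154 CPM in the treated libraries (log2 fold change -0.60 with SE 0.0945, edgeR adjusted p = 0.00765). Ccnd1 rose and Cdk4 fell. Ccna2, cyclin A2, fell from 333 ± 20.5 CPM to 237 ± 40.5 CPM, and Anln, anillin of the cleavage furrow, rose from 237 ± 6.27 CPM to 320.2 ± 31.8 CPM. Nek2, a centrosome kinase, rose from 105 ± 12.4 CPM to 144 ± 17.2 CPM. Mki67, the Ki-67 antigen gene, had a log2 fold change of -0.18 and did not pass (edgeR adjusted p = 0.551). Of the DNA replication genes, 2 passed as higher and 7 as lower with the replicate block and 5 as higher and 4 as lower without both replicate 3 libraries. For DNA replication genes, leaving out 1 library gave 3 called lower without control 3. The DNA replication median was -0.02 without both replicate 3 libraries. Of the mitotic genes, 3 passed as higher and 9 as lower with the replicate block and 3 as higher and 7 as lower without both replicate 3 libraries. For mitotic genes, leaving out 1 library gave 6 called lower without control 3. Removing 1 library took the edgeR adjusted p above the threshold for E2f1 (0.0638 without control 1), Ccna2 (0.0937 without control 1 or 2) and Nek2 (0.0796 without control 1). Overlap with a gene on the opposite strand was found for exons of Cdk4, Ccna2 and Nek2, so these values are uncertain.

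Ribosomal protein genes and nuclear genes of the respiratory chain lay slightly below control, and the mitochondrially encoded genes lay slightly above it. All 47 cytosolic ribosomal protein genes were below 0 (median -0.32, pair medians -0.47, -0.32 and -0.12), of which 2 fell, Rpl10a by a log2 fold change of -0.41 and Rpl14 by -0.39. The difference was the smallest within pair 3. Among 43 nuclear-encoded subunits of the respiratory chain, 40 were under 0 and 1 fell, Ndufb10 of complex I by -0.34 (median -0.21, pair medians -0.43, -0.20 and -0.04). Of 13 mitochondrially encoded genes, 12 were above 0 (median 0.17, pair medians 0.34, 0.08 and 0.19), and 0 rose and 0 fell, with 0 at an unadjusted p under 0.05 and 0 called by DESeq2. Of 35 genes of MYC and ribosome biogenesis, 0 rose and 2 fell (median -0.12). They were the MYC antagonists Mxd4 and Mxd3, Mxd4 standing at 76.4, 103 and 142 CPM in the control libraries and at 54.5, 67.1 and 44.4 CPM in the treated libraries (edgeR adjusted p = 0.0244). Mxd3 fell from 21.8 ± 1.03 CPM to 16.7 ± 1.58 CPM. Myc itself stood at 116, 66.4 and 268 CPM in the control libraries and at 218, 150.2 and 148 CPM in the treated libraries, with the groups overlapping (edgeR adjusted p = 0.804). Of the ribosomal protein genes, 0 passed as higher and 32 as lower with the replicate block and 0 as higher and 46 as lower without both replicate 3 libraries. They had 0 called lower without control 1 or 2 or treated 1, 2 or 3 and 46 without control 3. Of the oxidative phosphorylation genes, 0 passed as higher and 12 as lower with the replicate block and 0 as higher and 28 as lower without both replicate 3 libraries. Of them, 22 were called lower without control 3. Of the MYC and ribosome biogenesis genes, 1 passed as higher and 6 as lower with the replicate block and 5 as higher and 4 as lower without both replicate 3 libraries. They had 0 called lower without control 2 or treated 1 or 3 and 6 without control 3. Without 1 library the calls of Rpl10a (0.105 without control 1 or 2 or treated 1, 2 or 3), Rpl14 (0.145 without control 1 or 2 or treated 1, 2 or 3), Ndufb10 (0.121 without control 1 or 2 or treated 1, 2 or 3), Mxd4 (0.0653 without control 2 or treated 1 or 3) and Mxd3 (0.136 without control 1 or 2 or treated 1 or 3 and 0.0554 without both replicate 3 libraries) ended (edgeR adjusted p in parentheses). A gene on the opposite strand overlaps exons of Rpl10a, Mxd4 and Mxd3, and Rpl14 has near-identical copies, so these values are uncertain.

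Of 36 genes of cholesterol and fatty acid synthesis, 2 rose and 1 fell (median 0.14), Srebf1 being the fall and Me1 and Acss2 the rises. Acss2, which makes acetyl-CoA from acetate, stood at 26.8, 23.3 and 26.8 CPM in the control libraries and at 35.6, 33.01 and 41.6 CPM in the treated libraries (log2 fold change 0.52 with SE 0.108, edgeR adjusted p = 0.0197). Of 44 lysosome and autophagy genes, 4 rose and 0 fell (median 0.27). Mitf, a transcription factor related to the lysosomal regulator TFEB, stood at 2.17, 1.87 and 2.67 CPM in the control libraries and at 4.06, 4.39 and 7.55 CPM in the treated libraries (log2 fold change 1.25 with SE 0.278, edgeR adjusted p = 0.0252), and Uvrag, a protein of autophagosome maturation, rose from 53.6 ± 3.58 CPM to 74.05 ± 7.34 CPM. The groups did not overlap for either. Of the lipid synthesis genes, 9 passed as higher and 2 as lower with the replicate block and 11 as higher and 2 as lower without both replicate 3 libraries. For lipid synthesis genes, leaving out 1 library gave 5 called higher without control 3. Of the lysosome and autophagy genes, 12 passed as higher and 1 as lower with the replicate block and 7 as higher and 0 as lower without both replicate 3 libraries. The lysosome and autophagy median was 0.15 without both replicate 3 libraries. With 1 library left out, edgeR no longer called Acss2 (0.0718 without control 2) and Mitf (0.08803 without control 1 or 2 or treated 3). Exons of Acss2 and Uvrag overlap a gene on the opposite strand, so these values are uncertain.

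Among genes that bind, write or depend on DNA methylation, 4 lists had 1, 1, 1 and 3 calls, or 4%, 7.14%, 20% and 13.6% of their tested members, against 5.65% of all tested genes. Of 25 methyl-CpG binding and NuRD genes, 0 rose and 1 fell (median -0.06). The fall was that of Cdk2ap1, a small NuRD subunit, at 187, 173 and 181 CPM in the control libraries and at 136, 157 and 123 CPM in the treated libraries (log2 fold change -0.38 with SE 0.0936, edgeR adjusted p = 0.0389). Mbd3, the paralog of Mbd2, stood at 75.3, 112 and 104 CPM in the control libraries and at 87.8, 94.9 and 60.9 CPM in the treated libraries and did not pass (edgeR adjusted p = 0.373). Of 14 genes of DNA methylation and its removal, 1 rose and 0 fell (median 0.05). Gadd45a, a stress gene linked to demethylation, rose from 53.5 ± 21.7 CPM to 108 ± 35.1 CPM (edgeR adjusted p = 0.0465), and Dnmt1, the maintenance methyltransferase, had a log2 fold change of 0.08 (edgeR adjusted p = 0.731). Of 50 germline genes known to be silenced by methylation, 45 had counts too low to be tested. Among the 5 tested, 1 rose and 0 fell. The rise was that of Tex19.1, a germ cell gene that holds retrotransposons in check, with 5, 3 and 4 counts in the control libraries and 27, 27 and 42 in the treated libraries (log2 fold change 3.17 with SE 0.495, edgeR adjusted p = 0.007004). Every treated library had more counts than every control library, at a level near 1 CPM. Rhox5, a homeobox gene of the germline, had 18, 31 and 9 counts in the control libraries and 51, 43 and 64 in the treated libraries and passed with the block and not without it (edgeR adjusted p = 0.0429 against 0.0507). Of 22 imprinted genes, 1 rose and 2 fell (median 0.07). Mest, an imprinted gene of mesoderm, stood at 9.19, 7.86 and 5.88 CPM in the control libraries and at 19.04, 15.6 and 13.98 CPM in the treated libraries (log2 fold change 1.08 with SE 0.171, edgeR adjusted p = 0.00765). H19, an imprinted noncoding RNA, had 7, 15 and 10 counts in the control libraries and 1, 0 and 0 in the treated libraries and fell (edgeR adjusted p = 0.0123). Its neighbour Igf2 had 11, 0 and 2 counts in the control libraries and 0, 6 and 3 in the treated libraries. Commd1 fell from 73.5 ± 11.1 CPM to 52.4 ± 5.596 CPM. Of the methyl-CpG binding and NuRD genes, 1 passed as higher and 4 as lower with the replicate block and 1 as higher and 5 as lower without both replicate 3 libraries. They had 3 called lower without control 3 and a median of 0.06 without both replicate 3 libraries. Of the DNA methylation enzyme genes, 3 passed as higher and 0 as lower with the replicate block. Their median was 0.20 without both replicate 3 libraries. Of the imprinted genes, 3 passed as higher and 2 as lower with the replicate block and 3 as higher and 2 as lower without both replicate 3 libraries. They had 3 called higher without control 3 and a median of 0.18 without both replicate 3 libraries. The calls of Cdk2ap1 (0.0937 without control 1 or 2 or treated 1 or 3), Gadd45a (0.132 without control 1 or 3 or treated 2 or 3 and 0.07705 without both replicate 3 libraries) and Commd1 (0.0912 without control 1 or 2 or treated 1 or 3) ended with 1 library left out, at the edgeR adjusted p given. Values are uncertain where a gene overlaps exons on the opposite strand, as for Gadd45a, Mest, H19 and Commd1, and Cdk2ap1 has near-identical copies.

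Markers of cell types were read as levels of the whole culture. Luminal mammary markers had a summed level of 1336 to 1480 CPM in control and 1605 to 1638 CPM with KCC-07, and 6 of 15 tested rose (Foxa1, Areg, Epcam, Cdh1, Krt18 and Krt19) and 0 fell, with a median of 0.10. Another 7 of the 15 lay below 0. Csn3, a casein gene, stood at 4.25, 5.83 and 3.19 CPM in the control libraries and at 1.71, 2.58 and 1.64 CPM in the treated libraries and passed as lower with the block and not without it (edgeR adjusted p = 0.00781 against 0.0754). The luminal progenitor markers Elf5 and Kit and the luminal factor Gata3 had log2 fold changes of -0.26, -0.47 and -0.05 and did not pass. Esr1, the estrogen receptor, did not pass either (edgeR adjusted p = 0.895). Basal and myoepithelial markers summed to 788 to 1073 CPM and 792 to 1068 CPM. Of 9 tested, 1 fell, namely Oxtr, the oxytocin receptor of myoepithelial cells, with 124, 100 and 58 counts in the control libraries and 19, 21 and 29 in the treated libraries (log2 fold change -1.83 with SE 0.312, edgeR adjusted p = 0.00907). Fibroblast markers summed to 251 to 349.7 CPM in control and 120 to 176 CPM with KCC-07, and 2 of 8 tested fell (Postn and Cxcl12). Thy1 was at 0 in all 6 libraries, and Col1a2, Dcn, Lum, Dpt and Cd34 had at most 10 counts in each. Pdgfrb, a receptor of mesenchymal cells, stood at 17.1, 16.95 and 15.9 CPM in the control libraries and at 10.4, 8.75 and 2.42 CPM in the treated libraries and did not pass (edgeR adjusted p = 0.0998, and 0.0233 with the block). Macrophage markers Adgre1, C1qa, C1qb, C1qc and Tyrobp and endothelial markers Cdh5, Tie1 and Cldn5 were at 0 in all 6 libraries, and 9 of 15 macrophage and myeloid markers and 7 of 11 endothelial markers had at most 10 counts in each. The macrophage and myeloid sum was 122 to 178 CPM in control and 111 to 135 CPM with KCC-07, and the endothelial sum 10.3 to 15.4 CPM and 6.74 to 13.1 CPM. Most of the first was Cd14, at 129, 167 and 112 CPM in the control libraries and at 121, 121 and 96.05 CPM in the treated libraries. Csf1r, Cd68, Pecam1, Plvap and Erg were also detected, and neither they nor Cd14 passed. Erg stood at 3.66, 5.595 and 9.13 CPM in the control libraries and at 2.15, 1.84 and 0.112 CPM in the treated libraries (edgeR adjusted p = 0.0556), and Plvap passed as higher with the block (edgeR adjusted p = 0.0198). Of the myeloid genes, S100a8 fell, with 112, 111 and 131 counts in the control libraries and 49, 42 and 27 in the treated libraries (edgeR adjusted p = 0.0251). All 12 lymphocyte markers had at most 10 counts in each library, and 7 of them were at 0. Of the adipocyte markers, 6 of 8 had at most 10 counts. For luminal marker genes, leaving out 1 library gave 1 called higher without control 1 or treated 3. A call lost with 1 library left out was that of S100a8 (0.0673 without control 1 or 2 or treated 2 or 3), with its edgeR adjusted p. Opposite-strand genes overlap exons of Gata3, which leaves this value uncertain.

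The comparison of siMBD2 with scramble siRNA, which shares no library with KCC-07 against control, called 6 genes (0.0402%), of which 0 were among the 844. The 844 are 5.65% of all genes tested, so 0 of 6 is no result about the overlap. The test of the difference between both effects passed for 98 genes (0.656%), of which 67 were among the genes that rose and 22 among those that fell. The log2 fold changes of Foxa1 were 1.43 with the compound and -0.11 with siMBD2 (edgeR adjusted p of the difference = 0.00676), and Ablim1 had 1.87 and -0.43 (edgeR adjusted p of the difference = 0.00539). For Cxcl12 they were -2.75 and 0.41 (edgeR adjusted p of the difference = 0.00959), and for Mest 1.08 and -0.97 (edgeR adjusted p of the difference = 0.00676). These genes were named by their change with KCC-07, which is part of this difference, so passing it is no separate result. The same limit holds for the called genes counted among the 98. Scramble siRNA against control called 1313 genes (8.79%), and it shares the control libraries with KCC-07. Side by side, the log2 fold changes with KCC-07 and with scramble were 1.57 and 1.497 for Ocln, 2.41 and 2.40 for Tmprss2, 1.30 and 1.08 for Hmox1, 1.43 and 0.14 for Foxa1 and 1.61 and -0.69 for Plat. Scramble against control passed for Ocln, Tmprss2, Hmox1 and Plat and not for Foxa1 (edgeR adjusted p = 0.529).

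**Figure D5:**
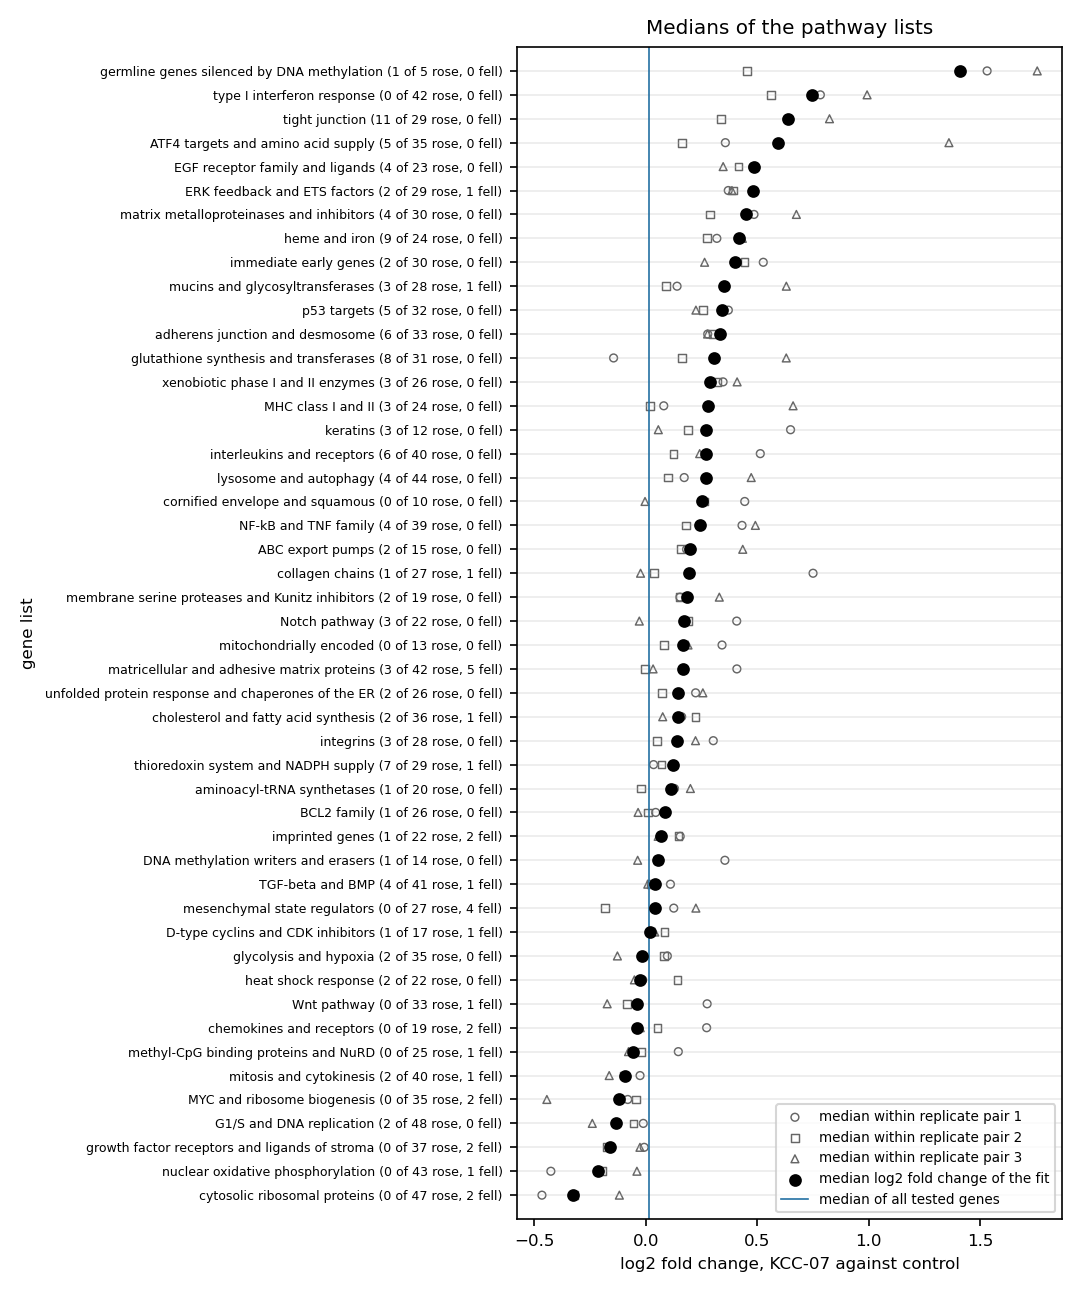
Median log2 fold change of each of the 48 pathway lists (filled points), with the medians within the 3 replicate pairs (open symbols) and the median of all tested genes (line). Labels give the members that rose and fell, and the tight junction list has a median of 0.64 with 11 of 29 members that rose.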

How the data were processed

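RNA from 12 libraries of PYMT-R221A cells was sequenced, 3 for each of 4 groups, and the 6 libraries labelled control and KCC-07 are described here. The deposited table holds whole-number counts per gene for 55335 genes. Per the submitters' processing notes the authors used DRAGEN and DESeq2 1.44.0 with mm10 and GRCm38.p6, in roles those notes do not give. The annotation and the strand setting were not stated in the sources used here, and counts of overlapping or duplicated genes depend on them.

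Here the counts were filtered with filterByExpr (minimum count 10, minimum total 15), which left 14935 genes, and scaled by TMM. They were fitted with edgeR 4.0.16 (quasi-likelihood, 1 mean per group over all 12 libraries, 8 residual degrees of freedom) in R 4.3.3 with limma 3.58.1. The threshold was a Benjamini-Hochberg adjusted p of 0.05 over all tested genes. The SE was taken from the fold change and the test's F. Pair differences used log2 CPM with a prior count of 2. On simulated data, 66% of 100 genes changed 2-fold and 83% of 100 changed 4-fold were recovered with 4 false calls (14935 genes, KCC-07 against control).

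The replicate number was checked for pairing, since the labels file it under batch. Deviations from the group means correlated over 11929 genes with r of 0.369, 0.369 and 0.563 between same-numbered libraries. Control 1 and treated 2 gave 0.396, and control 2 and treated 1 gave 0.318, so numbers 1 and 2 were not separated from each other by these values. The other 4 crossed pairs gave -0.40 to -0.51. The block was set within each arm, compound and siRNA.

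Total counts per library ran from 25831299 to 33956792. The precision of a change rests on 3 libraries a group, and an exact permutation test of 3 against 3 cannot go below 0.1, so p-values come from the fit across genes. No library pair of a group agreed within sampling noise. Gene positions come from GENCODE M21 (GRCm38). Genes with exons overlapping the opposite strand (bedtools 2.31.1) or with near-identical copies (blastn 2.17.0, 95% identity over 50% of the length) are named as uncertain. Promoters are RefSeq sequences.

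The members and gene lists were chosen with earlier results of these data known. Genes named are the 15 largest rises and falls, the 8 with the smallest p and the 8 with the largest CPM change in each direction (called, at least 2 CPM, no overlap, no predicted models). Genes by appearance (under 0.5 CPM in every control library and over 1 CPM in every treated library, or the reverse), 5 with the widest pair range, up to 6 called and 3 block-only members a list and defining members were also named. A further 41 symbols were added after their values were seen, as defining members. Alternatives covered normalization, filters, block, library sets, tool and threshold. Results of some genes are not reported here.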

Additional observations from a re-analysis of the deposited data

How the results depend on the processing

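The test gave 844 calls (534 higher and 310 lower with KCC-07). Size factors of DESeq2 in place of TMM gave 854 calls, of which 836 were among the 844, no filter on low counts 883 (666 shared), and a filter at 1 CPM 913 (810 shared). The replicate block gave 3251 calls (1907 higher and 1344 lower), and DESeq2's own test 1871 (1089 and 782). The 6 libraries alone gave 1 call (1 higher and 0 lower, with 3744 genes at an unadjusted p under 0.05 in the 12-library fit), and with the replicate block 394 (317 and 77). A threshold of 0.01 left 145 (105 and 40). Leaving out 1 library at a time gave 391 to 2134 calls, 235 to 1193 higher and 118 to 941 lower. The lowest count was without control 2 and the highest without control 3, and without control 1 it was 403. Leaving out the replicate 3 libraries of all 4 groups gave 3833 calls (2250 and 1583). Leaving out control 3 and treated 3 alone, an alternative chosen after seeing the data, gave 2652 (1516 and 1136). The cause of these shifts was not tested. Of the 171 named genes called, 171 kept their call with the block and with DESeq2, 169 with size factors and 157 without the filter. With the stricter filter 167 did (the others were not tested there), and 58 did at the threshold of 0.01. With 1 library left out 104 to 159 did. The 6 libraries with the block kept 93 and lost 78. The 6 libraries alone, without the siRNA libraries and the block, kept 1 and lost 170. Without the siRNA libraries, the named calls thus depended on use of the block, and the reason was not tested. No called gene named in the text reversed its direction in the alternatives run.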

Other observations

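Some gene groups outside the main account held single calls. Of 35 genes of glycolysis and the hypoxia response, 2 rose and 0 fell (median -0.02, 5.71% called, against 5.65% of all genes tested). Epas1, the hypoxia-inducible factor HIF-2 alpha, stood at 92.3, 115 and 98.9 CPM in the control libraries and at 141, 143 and 158 CPM in the treated libraries (log2 fold change 0.53 with SE 0.0957, edgeR adjusted p = 0.0118). Ndrg1, a stress gene induced by hypoxia, stood at 156, 159 and 124 CPM in the control libraries and at 214, 204 and 343 CPM in the treated libraries (edgeR adjusted p = 0.0307). Among the enzymes, Ldha, lactate dehydrogenase, stood at 899, 892 and 989 CPM in the control libraries and at 738, 775 and 440.1 CPM in the treated libraries and did not pass (edgeR adjusted p = 0.0897, and 0.0479 with the replicate block). Hk2, hexokinase 2, stood at 33.5, 39.6 and 64.8 CPM in the control libraries and at 64.3, 64.7 and 70.7 CPM in the treated libraries and did not pass either (edgeR adjusted p = 0.113, and 0.0198 under the block). Of the glycolysis and hypoxia genes, 8 passed as higher and 6 as lower with the replicate block and 4 as higher and 6 as lower without both replicate 3 libraries. They had 4 called higher without control 3 and a median of 0.13 without both replicate 3 libraries. Of 22 heat shock genes, 2 rose and 0 fell (median -0.03, 9.09% called). Hspa4l, a nucleotide exchange factor of the HSP70 chaperones, stood at 30.3, 38.2 and 36.01 CPM in the control libraries and at 68.99, 67.9 and 147 CPM in the treated libraries (edgeR adjusted p = 0.008998), with no overlap between groups. Hspa13, a microsomal HSP70 relative, rose from 83.1 ± 4.51 CPM to 112 ± 13.5 CPM (edgeR adjusted p = 0.02298). For heat shock genes, leaving out 1 library gave 4 called higher and 1 lower without control 3, and 1 called higher without control 2 or treated 1 or 2. Of 20 aminoacyl-tRNA synthetases, 1 rose and 0 fell (median 0.11, 5% called). The rise was that of Aars, which charges the alanine tRNA, from 267 ± 41.2 CPM to 370.3 ± 33.9 CPM (edgeR adjusted p = 0.04998). Of the synthetase genes, 4 passed as higher and 2 as lower with the replicate block. Removing 1 library took the edgeR adjusted p above the threshold for Ndrg1 (0.0692 without control 1 or 2), Hspa13 (0.0633 without control 2 or treated 1 or 2) and Aars (0.142 without control 1 or 3 or treated 1, 2 or 3 and 0.0998 without both replicate 3 libraries). Overlap with a gene on the opposite strand was found for exons of Ndrg1 and Aars, so these values are uncertain.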
